A study of Mus musculus with 2 samples.

Results

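The bone resorption machinery examined here was a set of 8 genes, out of 32285 in the count tables: Car2, Slc4a2, Tcirg1, Clcn7, Ostm1, Acp5, Ctsk and Rab38. They were listed by name for their known roles. An osteoclast dissolves bone in a sealed pocket beneath its ruffled border, a membrane built by fusion of lysosome-like vesicles, into which it pumps acid and proteases. Car2, carbonic anhydrase II, makes the protons together with bicarbonate, and Slc4a2, the anion exchanger AE2, exports the bicarbonate at the opposite membrane in exchange for chloride. Tcirg1 is the a3 subunit of the V-ATPase that pumps the protons, Clcn7 is the chloride-proton exchanger that balances their charge, and Ostm1 is the accessory subunit that Clcn7 needs for its stability. Acp5 encodes tartrate-resistant acid phosphatase (TRAP), the classic osteoclast stain, and Ctsk encodes cathepsin K, the protease that cleaves bone collagen. Rab38 is a small GTPase of lysosome-related organelles. Many of these genes are targets of NFATc1, the master transcription factor of osteoclast differentiation, whose induction needs the AP-1 family protein Jdp2 in mouse cells.

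Adherent cells from the bone marrow of a wild-type male C57BL/6J mouse, 3 months old, were profiled by droplet single-cell RNA sequencing. The DHT culture received 1 nM 5α-dihydrotestosterone, a potent androgen, and the Vehicle culture received an equal volume of ethanol. For the first 48 h both were kept without other hormones and with M-CSF, which sustains monocytes and macrophages, at 5 ng/mL. For the last 24 h, with DHT or ethanol renewed, M-CSF was at 100 ng/mL and RANKL, the cytokine that commits precursors to osteoclasts, and human TNF were present at 30 and 10 ng/mL. Each group was 1 library from 1 mouse. No difference here therefore has a replicate check, no test between groups was made, and all intervals cover counting error only.

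After filtering, 7708 DHT cells with a median of 30133 unique molecular identifiers (UMIs) and 8590 Vehicle cells with a median of 50833.5 UMIs were kept. Clustering without the 8 genes, followed by naming from markers, gave 7 classes that held 100 or more cells of each library. The labels call the cells osteoclast precursors, and both cultures also held neutrophil-, B cell- and dendritic cell-like cells. Osteoclast-like cells were 28.8% of DHT cells (2222) and 54.5% of Vehicle cells (4683). All 10 osteoclast markers, which also served for the naming, were detected in them. They summed to 2618 CPM (UMIs per 1000000 UMIs of the same cells) in DHT and 2069 CPM in Vehicle. Only 6 of them reached 20 CPM, and Nfatc1 and Jdp2 made up most of the sum. The 8 monocyte markers were also detected in these cells, at a summed 3369 CPM in DHT and 3637 CPM in Vehicle. The libraries shared 33 barcodes, of which 18 were kept in both. The 10 neutrophil markers, none at 0, summed to 1095 CPM in DHT osteoclast-like cells and 438 CPM in Vehicle ones. These UMIs were used below to estimate free RNA of other cells. Whether they came from free RNA, doublets or the cells themselves was not tested.

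The 8 genes lie on 7 chromosomes of the mouse assembly GRCm38, with Car2 and Ctsk both on the plus strand of chromosome 3, at 14886273 to 14900770 and at 95499256 to 95509362. On the plus strand also lie Slc4a2 (chromosome 5, 24423837 to 24440950), Clcn7 (chromosome 17, 25133391 to 25162104), Ostm1 (chromosome 10, 42583822 to 42702459) and Rab38 (chromosome 7, 88430273 to 88491572). Acp5 (chromosome 9, 22126727 to 22135711) and Tcirg1 (chromosome 19, 3896050 to 3907133) lie on the minus strand. Slc4a2 shares 1141 exonic bases with Fastk, Ostm1 shares 410 with Gm15200 and Acp5 shares 137 with 6530413G14Rik. All 3 partners lie on the opposite strand, and whether counting used strand is not given in the sources used here, so reads of these pairs may be mixed.

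RefSeq promoter windows (GRCm38.p6) were at hand for 6 of the 8 genes, 12 windows in all, and the 250 bases before each start were searched on both strands. Shown are the first listed windows of Acp5, Ctsk and Slc4a2, which differed most with Nfatc1 and Jdp2 among the genes with a window, and of Clcn7 and Ostm1, partner proteins whose slopes differed. They are chr9:22135747-22135996 (minus strand), chr3:95498960-95499209, chr5:24424982-24425231, chr17:25133141-25133390 and chr10:42678666-42678915 (all plus strand). Capitals mark GGAAA, the core bound by NFAT proteins (or TTTCC on the other strand), and CACGTG, an E-box.
Acp5: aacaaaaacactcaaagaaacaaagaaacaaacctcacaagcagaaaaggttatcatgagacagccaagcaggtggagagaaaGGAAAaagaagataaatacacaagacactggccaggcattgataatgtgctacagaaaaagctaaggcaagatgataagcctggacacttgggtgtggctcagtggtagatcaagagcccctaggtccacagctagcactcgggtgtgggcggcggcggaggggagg
Ctsk: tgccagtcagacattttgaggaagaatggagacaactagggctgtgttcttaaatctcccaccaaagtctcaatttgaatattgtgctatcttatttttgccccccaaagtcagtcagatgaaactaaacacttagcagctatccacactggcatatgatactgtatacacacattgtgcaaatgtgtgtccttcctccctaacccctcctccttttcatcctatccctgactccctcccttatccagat
Slc4a2: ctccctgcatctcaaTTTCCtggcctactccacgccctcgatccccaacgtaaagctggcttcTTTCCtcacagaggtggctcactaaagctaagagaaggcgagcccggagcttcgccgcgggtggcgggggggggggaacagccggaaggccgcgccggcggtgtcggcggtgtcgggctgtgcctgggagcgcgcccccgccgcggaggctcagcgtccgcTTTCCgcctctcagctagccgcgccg
Clcn7: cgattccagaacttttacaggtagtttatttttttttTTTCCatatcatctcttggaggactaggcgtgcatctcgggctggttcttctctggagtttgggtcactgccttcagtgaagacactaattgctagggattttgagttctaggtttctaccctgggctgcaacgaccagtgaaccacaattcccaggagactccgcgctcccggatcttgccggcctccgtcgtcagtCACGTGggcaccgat
Ostm1: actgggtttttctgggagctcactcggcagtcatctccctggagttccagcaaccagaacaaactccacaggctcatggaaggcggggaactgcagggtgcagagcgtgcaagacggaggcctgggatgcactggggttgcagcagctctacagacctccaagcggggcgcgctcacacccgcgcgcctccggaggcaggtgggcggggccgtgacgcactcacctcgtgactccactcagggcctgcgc
GGAAA was found in 6 of the 12 windows, against 55.6% of all 32851 promoter windows. CACGTG was found in 1, the first of Clcn7, against 6.02% of all windows. The AP-1 motif TGANTCA was found in 0 of the 12, against 6.75%. Matches are descriptions of these windows and no binding was measured.

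Acp5, Ctsk, Car2, Clcn7, Tcirg1 and Slc4a2 reached their highest level in osteoclast-like cells in both libraries, as the plot of levels by class shows, and the gap to the other classes differed widely. Car2 stood at 49.3 CPM in DHT osteoclast-like cells and 1.16 CPM in DHT macrophage-like cells, a 42.6-fold difference, and the same comparison gave 26.7-fold in Vehicle. The low end rested on 44 UMIs in DHT and 82 in Vehicle, and without the 1% of cells with most Car2 UMIs the folds were 47.4 in DHT and 42.4 in Vehicle. Ctsk was 12.4-fold and Acp5 8.66-fold higher in DHT osteoclast-like than macrophage-like cells, against 9.55-fold for Ctsk and 10.9-fold for Acp5 in Vehicle. The transport genes were shared more evenly between these classes. Slc4a2 differed 2.04-fold in DHT and 1.82-fold in Vehicle, Tcirg1 1.38-fold in DHT and 1.48-fold in Vehicle, and Clcn7 1.29-fold in DHT and 1.33-fold in Vehicle.

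Ostm1 and Rab38 departed from this order. Ostm1 stood at 22.9 CPM in DHT and 20.9 CPM in Vehicle osteoclast-like cells. Its highest class was macrophage-like, at 24.7 CPM in DHT and 23.9 CPM in Vehicle. Its lowest was neutrophil-like, at 13.5 CPM in DHT and 13.6 CPM in Vehicle. Rab38 was highest in granulocyte-monocyte progenitor-like cells, at 9.58 CPM in DHT and 6.46 CPM in Vehicle, and within them in the cluster led by Elane, Prtn3 and Mpo, at 20.9 CPM in DHT and 16.8 CPM in Vehicle. No Rab38 UMI was found in 340 DHT and 116 Vehicle B cell-like cells. That allows up to 1.08% of DHT and 3.13% of Vehicle B cell-like cells to hold a UMI (exact binomial limits).

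**Figure D1:**
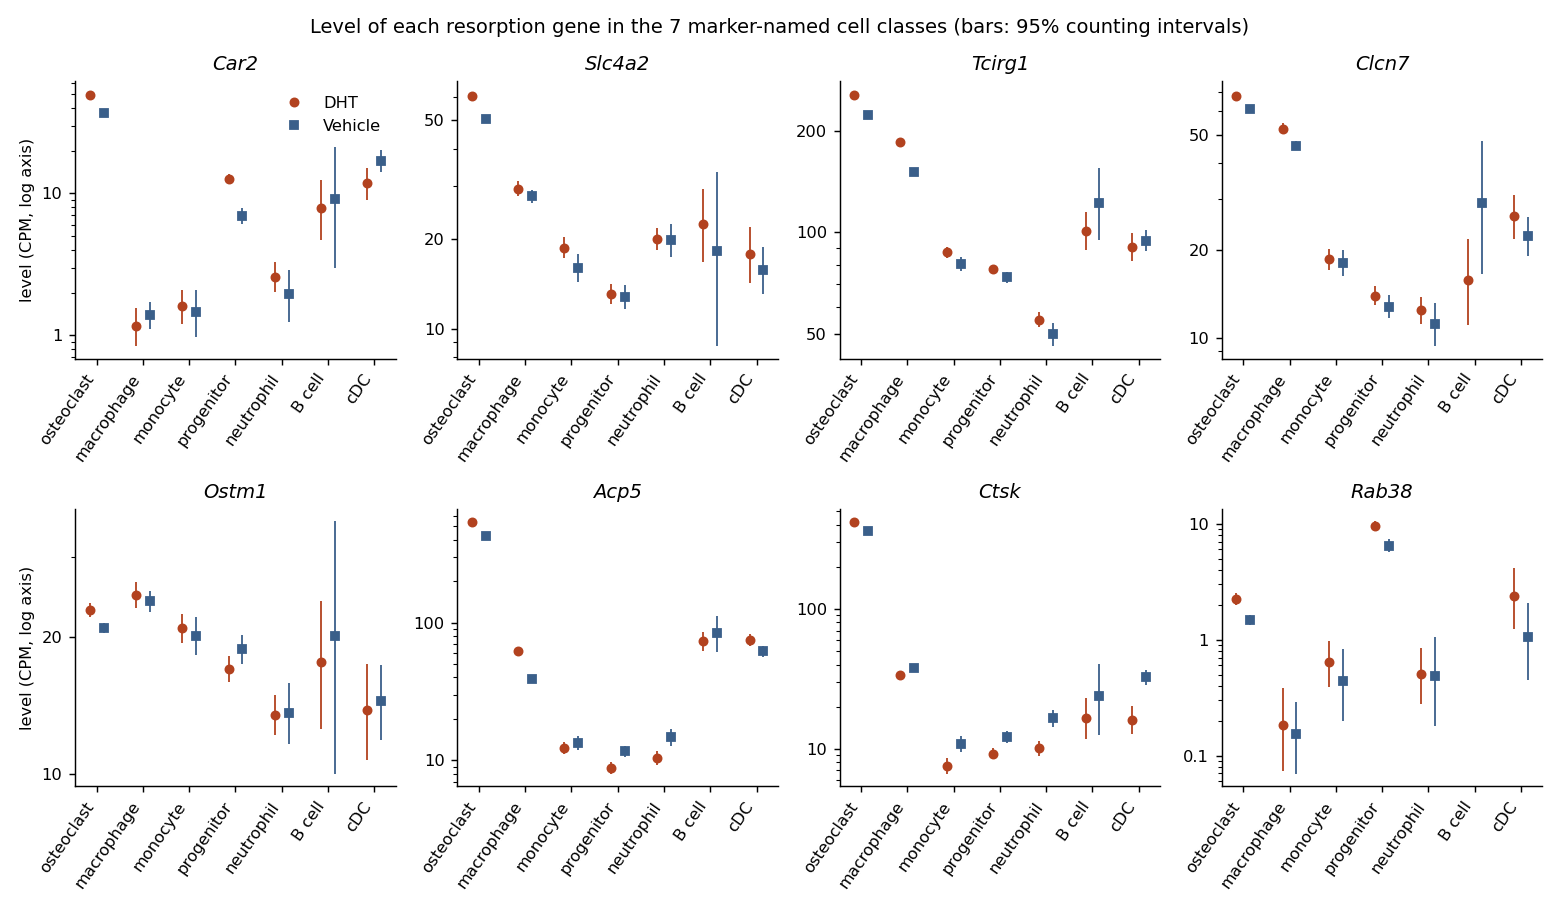
Level of each gene (CPM, log axis, a separate scale for each gene) in the 7 cell classes, with DHT as circles on the left and Vehicle as squares on the right of each pair. Bars are 95% Poisson counting intervals, and a class without a UMI is not drawn. Car2, Ctsk and Acp5 drop steeply outside osteoclast-like cells, and Ostm1 stays between 13.5 and 24.7 CPM. Rab38 peaks in progenitor-like cells at 9.58 CPM in DHT and 6.46 CPM in Vehicle.

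In osteoclast-like cells the levels of all 8 genes were larger in DHT than in Vehicle by small ratios, and 0 of the 7 measured at 20 CPM or more reached the 1.5-fold difference used as a call. Over all 6483 genes tested in these cells, 1.13% were called higher and 0.0925% lower. At a lower threshold, a ratio of 5 to 4, Acp5 and Car2 were called higher, against 2.55% of all genes, and no member lower, against 0.864%. The median log2 ratio, DHT over Vehicle, was 0.22 over the 7 genes and 0.04 over all genes tested. That the ratios lie on 1 side is a description of these 2 libraries, which differed in depth over all kept cells. In osteoclast-like cells the median depth was 58135 UMIs in DHT and 59373 in Vehicle. Free RNA, estimated there against all RNA of the same library, was 3.43% in DHT and 3.60% in Vehicle. With it subtracted, the log2 ratio of Acp5 was 0.35.

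Among the genes that make and move acid, Car2 had 49.3 CPM in DHT and 37.0 CPM in Vehicle osteoclast-like cells, a ratio of 1.33 (95% counting interval 1.29 to 1.37; log2 0.41). Slc4a2 had 60.2 CPM in DHT and 50.4 CPM in Vehicle (log2 0.25), and Tcirg1 had 255 CPM in DHT and 222 CPM in Vehicle (log2 0.20). Chloride-proton exchange differed less. Clcn7 had 67.7 CPM in DHT and 61.0 CPM in Vehicle (log2 0.15), and its partner Ostm1 had a log2 ratio of 0.13.

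Of the secreted enzymes, Acp5 had 541 CPM in DHT and 427 CPM in Vehicle osteoclast-like cells, a ratio of 1.27 (1.254 to 1.278; log2 0.34). Ctsk had 419 CPM in DHT and 360 CPM in Vehicle, a ratio of 1.16 (1.15 to 1.18; log2 0.22). Rab38 was far below 20 CPM, at 2.25 CPM in DHT from 305 UMIs and 1.48 CPM in Vehicle from 428 UMIs (log2 0.61). Their regulators differed by a like amount: Nfatc1 had 540 CPM in DHT and 475 CPM in Vehicle (log2 0.19), and Jdp2 had 1060.3 CPM in DHT and 886 CPM in Vehicle (log2 0.26).

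**Figure D2:**
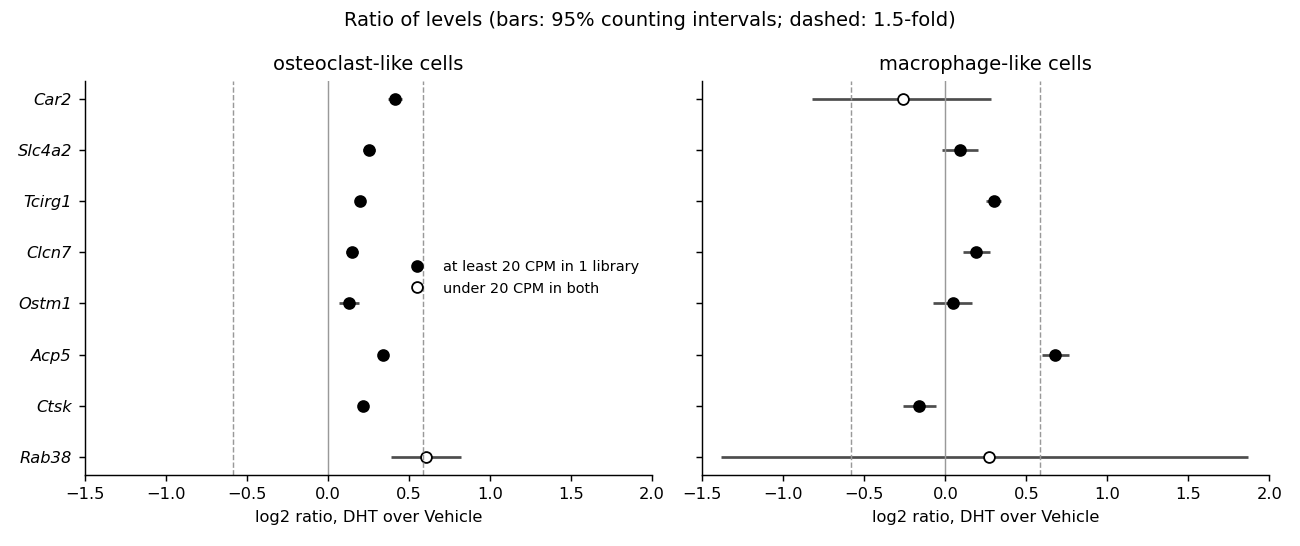
Log2 ratio of levels, DHT over Vehicle, of each gene in osteoclast-like cells (left) and macrophage-like cells (right). Points are ratios of summed counts, filled where either library reached 20 CPM, bars are 95% counting intervals and dashed lines mark 1.5-fold. All 8 points lie above 0 in osteoclast-like cells, and only Acp5 in macrophage-like cells lies past 1.5-fold among filled points.

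Over all kept cells 6 of the 8 ratios lay below 1, and 0 of 7 measured genes were called, against 5.48% of all genes called higher and 0.178% lower. Acp5 had 262 CPM in DHT and 297 CPM in Vehicle, Ctsk had 201 CPM in DHT and 250 CPM in Vehicle, and Clcn7 had 44.3 CPM in DHT and 50.2 CPM in Vehicle. These totals mix the level in each class with the smaller share of osteoclast-like cells in DHT given above. Pooling osteoclast-, macrophage- and monocyte-like cells left Acp5 at 368 CPM in DHT and 342 CPM in Vehicle (log2 0.11, but -0.09 with a minimum of 1000 genes and 2000 UMIs a cell) and Ctsk at 282 CPM in DHT and 289 CPM in Vehicle (log2 -0.03). In that pool 0 of 7 measured genes were called, against 2.44% of all genes called higher and 0.136% lower.

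Osteoclast-like cells fell into 5 clusters, which differed widely in Acp5. The lowest, cluster 1, had 77.7 CPM Acp5 in DHT and 62.1 CPM in Vehicle, and the highest, cluster 8, had 1671 CPM in DHT and 1475 CPM in Vehicle. Clusters 2, 10 and 3 lay between, with 337, 457 and 486 CPM in DHT and 300, 383 and 357 CPM in Vehicle. Cluster 1 held 24.8% of DHT and 27.4% of Vehicle osteoclast-like cells, and its identity was mixed. It had 5 of 7 osteoclast markers and 6 of 10 macrophage markers more than 2-fold over the other clusters. Its name rested on 1 osteoclast marker, Jdp2, among its top 10 genes. Of 40 gene and cluster pairs, 33 were measured, 30 of these had a ratio above 1, and 1 was called higher, against 1.13% of all gene and cluster pairs. None was called lower, against 0.0873%. The called pair was Car2 in cluster 2, a cluster whose leading genes included the histone genes Hist1h2ap and Hist1h1b, at 45.0 CPM in DHT and 25.8 CPM in Vehicle (log2 0.80). When the 5 clusters were given equal weights in both libraries, the log2 ratios became 0.25 for Acp5, 0.10 for Ctsk and 0.26 for Car2.

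Ctsk had 1461 CPM in DHT and 1279 CPM in Vehicle in cluster 8 (log2 0.19), where 4 DHT cells held 20.2% of the DHT Ctsk UMIs. Without the 1% of cells with most Ctsk UMIs its log2 ratio there was 0.07. In cluster 10 it had 430 CPM in DHT and 399 CPM in Vehicle (log2 0.11). It had 76.0 CPM in DHT and 74.1 CPM in Vehicle in cluster 1 (log2 0.04), 236 CPM in DHT and 244 CPM in Vehicle in cluster 2 (log2 -0.05), and 217 CPM in DHT and 221 CPM in Vehicle in cluster 3 (log2 -0.02). Acp5 in cluster 3, at a log2 ratio of 0.44, had the widest gap of any gene measured there. Igkc, an immunoglobulin gene, led cluster 8 by fold, and 4 DHT and 2 Vehicle barcodes there held 10 or more of its UMIs.

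The enzymes were concentrated in few cells and the transporters were spread widely. The top 10% of osteoclast-like cells by UMIs of a gene held 56.5% of Acp5 UMIs in DHT and 57.8% in Vehicle, 66.0% of Ctsk UMIs in DHT and 68.0% in Vehicle, and 68.4% of Car2 UMIs in DHT and 69.8% in Vehicle. For Tcirg1 they held 26.4% in DHT and 26.0% in Vehicle, and for Clcn7 30.3% in DHT and 29.4% in Vehicle. The median osteoclast-like cell had 159 CPM Acp5 in DHT and 93.7 CPM in Vehicle, while its upper quartile was 642 CPM in DHT and 465 CPM in Vehicle. For Tcirg1 the median was 239 CPM in DHT and 200.3 CPM in Vehicle.

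Rab38 was the most concentrated. Its 305 DHT UMIs came from 98 of the 2222 osteoclast-like cells, and 3 of these cells, with 68, 36 and 25 UMIs, held 129 of them. In Vehicle, 428 UMIs came from 175 cells, and the 3 highest, with 34, 17 and 16 UMIs, held 67. Without the 1% of osteoclast-like cells with the most Rab38 UMIs, the levels were 0.667 CPM in DHT and 0.544 CPM in Vehicle (log2 0.30). With the mitochondrial limit set at 5% the log2 ratio was -0.04. The size of the Rab38 difference thus depended on few cells.

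Cells with Rab38 also stood apart in the other genes. In cluster 8, cells with 3 or more Rab38 UMIs (14 in DHT, 32 in Vehicle) had 5286 CPM Ctsk in DHT and 2799 CPM in Vehicle. The 290 DHT and 583 Vehicle cells of the same cluster with fewer had 1181 CPM in DHT and 1156 CPM in Vehicle. Acp5 was 4491 CPM in DHT and 2473 CPM in Vehicle in the Rab38 cells, and 1465 CPM in DHT and 1394 CPM in Vehicle in the others. Tcirg1, Slc4a2, Clcn7 and Ostm1 followed the same order in both libraries. Car2 did not in DHT, where it had 51.9 CPM in the Rab38 cells and 112 CPM in the others, whereas in Vehicle it had 138 CPM in the Rab38 cells and 101 CPM in the others. The Rab38 cells were deeper, with a median of 98516.5 UMIs in DHT and 93783.5 in Vehicle, against 66187 in DHT and 61597 in Vehicle for the others, and the part of depth in these values was not tested. Nfatc1 and Jdp2 together were no higher in them, at 2143 CPM in DHT and 2038 CPM in Vehicle, against 2331 CPM in DHT and 2195 CPM in Vehicle in the others. Over all of cluster 8, the 4 DHT cells with most Ctsk held 20.2% of its DHT UMIs. For Acp5 the top 4 DHT cells held 13.4%. Whether these were Rab38 cells, and their part in the values above, was not tested.

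Shares of cells with a UMI were compared after each cell was thinned to 5000 UMIs, which left out 1121 DHT and 612 Vehicle cells. All 8 shares were higher in DHT osteoclast-like cells. Acp5 was detected in 54.96% of DHT cells (95% exact binomial interval, 52.9 to 57.1%), against 48.3% in Vehicle (46.9 to 49.8%). Car2 was detected in 14.6% of DHT and 11.1% of Vehicle cells, and Slc4a2 in 23.7% of DHT and 19.9% of Vehicle cells. Tcirg1 was detected in 67.7% of DHT and 63.2% of Vehicle cells, Ctsk in 39.8% of DHT and 36.7% of Vehicle cells, and Clcn7 in 28.3% of DHT and 25.1% of Vehicle cells. Ostm1 was detected in 10.8% of DHT and 10.4% of Vehicle cells, and Rab38 in 0.773% of DHT and 0.494% of Vehicle cells. With 1 library a group, the intervals over cells do not cover differences between cultures.

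Neutrophil-like cells, which should lack Acp5 and Ctsk, gave a background at the same 5000 UMIs. Acp5 was found there in 5.91% of DHT and 7.08% of Vehicle cells, and Ctsk in 6.15% of DHT and 8.04% of Vehicle cells. Rab38 was found in 0.305% of DHT and 0.360% of Vehicle neutrophil-like cells, so at this depth the Rab38 shares of osteoclast-like cells were not separable from this background. Its level over all UMIs was 2.25 CPM (2.01 to 2.52) in DHT osteoclast-like and 0.504 CPM (0.276 to 0.846) in DHT neutrophil-like cells. In Vehicle it was 1.48 CPM (1.34 to 1.63) and 0.486 CPM (0.178 to 1.06). Few osteoclast-like cells carried that level, as given above. Without thinning, Acp5 was found in 87.3% of DHT and 86.6% of Vehicle osteoclast-like cells, at median depths of 58135 UMIs in DHT and 59373 UMIs in Vehicle. The neutrophil-like cells had median depths of 12677.5 UMIs in DHT and 9202 UMIs in Vehicle.

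**Figure D3:**
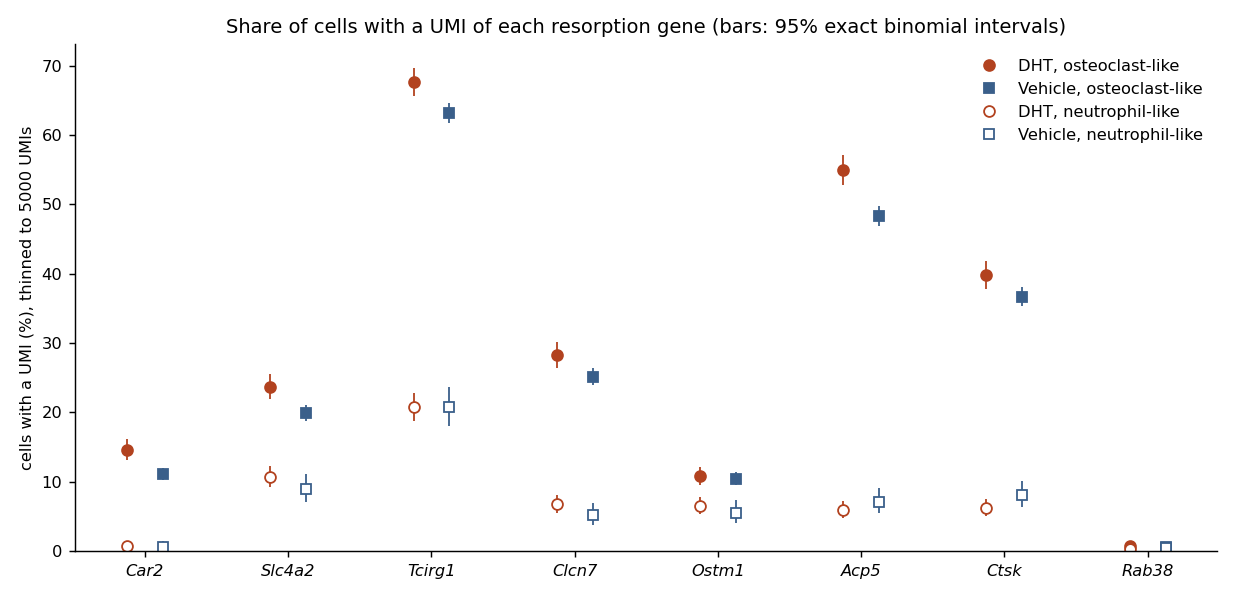
Percent of cells with at least 1 UMI of each gene after thinning every cell to 5000 UMIs, in osteoclast-like cells (filled) and neutrophil-like cells (open), with DHT as circles on the left and Vehicle as squares on the right. Bars are 95% exact binomial intervals. Acp5 reaches 54.96% in DHT and 48.3% in Vehicle osteoclast-like cells and is at 5.91% in DHT and 7.08% in Vehicle neutrophil-like cells.

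The genes were also counted together in each cell. At 20000 UMIs, an osteoclast-like cell held a mean of 4.30 of the 8 genes in DHT and 4.06 in Vehicle. Acp5 and Ctsk were found in the same cell in 53.2% of DHT and 48.5% of Vehicle osteoclast-like cells. In macrophage-like cells the mean was 3.27 genes in DHT and 3.04 in Vehicle, and Acp5 with Ctsk was found in 16.4% of cells in both libraries. All 8 genes were found in 9 DHT cells (0.436%) and 22 Vehicle cells (0.487%) of the osteoclast-like class.

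In macrophage-like cells, 1 of 6 measured genes was called higher, against 3.28% of all genes, and 0 were called lower, against 1.15%. The gene was Acp5, with 62.4 CPM in DHT and 39.0 CPM in Vehicle, a ratio of 1.60 (1.51 to 1.69; log2 0.68). Tcirg1 had 185 CPM in DHT and 151 CPM in Vehicle (log2 0.30), and Clcn7 had 52.3 CPM in DHT and 45.8 CPM in Vehicle (log2 0.19). Ctsk did not go with Acp5: it had 33.7 CPM in DHT and 37.7 CPM in Vehicle (log2 -0.16). The Acp5 call depended on where the class ended. At clustering resolution 1.0, which made the class larger (1597 DHT and 2059 Vehicle cells), the log2 ratio was 0.38. The class also differed in depth, with a median of 36378 UMIs in DHT and 52367 in Vehicle, and in its own markers, which summed to 4579.6 CPM in DHT and 2484 CPM in Vehicle, 7 of 9 called higher. The part of either in the Acp5 value was not tested.

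A called gene was also found in 2 smaller classes. In conventional dendritic cell-like cells (146 in DHT, 202 in Vehicle) Ctsk had 16.2 CPM in DHT from 81 UMIs and 32.5 CPM in Vehicle from 248 UMIs, a ratio of 0.498 (0.382 to 0.642; log2 -1.01), against 9.61% of genes called higher and 3.44% lower. Clcn7 in the B cell-like class had 15.8 CPM in DHT and 29.1 CPM in Vehicle, from 36 UMIs in DHT and 16 in Vehicle, and the counting interval of its ratio, 0.293 to 1.05, held 1. In these few cells 10.3% of genes were called higher and 7.67% lower. Ctsk was lower in DHT neutrophil-like cells as well, at 10.1 CPM in DHT and 16.6 CPM in Vehicle, both under 20 CPM. Osteoclast-like cells, the class with most Ctsk, were a smaller share in DHT, and the part of free Ctsk RNA in these values was not tested. No gene was called in monocyte-like cells (2 measured, against 1.64% of genes higher and 0.451% lower), in progenitor-like cells (1 measured, against 1.13% higher and 0.172% lower) or in neutrophil-like cells (1 measured, against 2.26% higher and 0.214% lower).

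Cells of the osteoclast-, macrophage- and monocyte-like classes with at least 10000 UMIs were next ordered by the share of their UMIs that came from Nfatc1 and Jdp2. Cells with neither formed bin 0, and the rest formed 5 bins of equal size over both libraries together, with edges at 172, 655, 1238 and 1881 CPM. Of the binned DHT cells 22.1% lay in bin 5, against 18.2% of the binned Vehicle cells, and 25.1% lay in bin 1, against 16.5%. These are shares of binned cells only. Of all kept cells, bin 5 held 784 of 7708 in DHT and 1115 of 8590 in Vehicle, a smaller share in DHT. Bin 5 was made of osteoclast-like cells alone in both libraries, whereas 3.27% of DHT cells and 9.20% of Vehicle cells in bin 1 were osteoclast-like. Nfatc1 and Jdp2 were also among the markers that named the osteoclast-like class. This match of bins and class was therefore partly set in advance.

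Car2, Ctsk and Acp5 differed most over the bins, and Ostm1 least. Car2 was higher in bin 5 than in bin 1 by 69.6-fold in DHT and 50.5-fold in Vehicle, Ctsk 42.9-fold in DHT and 22.8-fold in Vehicle, and Acp5 32.9-fold in DHT and 31.9-fold in Vehicle. The low end of Car2 rested on 65 UMIs in DHT and 85 in Vehicle. Free RNA in bin 1 was estimated at 4.54% in DHT and 7.62% in Vehicle. With it subtracted, the Acp5 log2 ratio there was 1.51, so the likeness of the 2 Acp5 folds depended on this setting. Without the 1% of cells with most UMIs of the gene, the Car2 folds were 84.3 in DHT and 89.5 in Vehicle, and the Ctsk folds 55.2 in DHT and 35.2 in Vehicle. Slc4a2 was 3.83-fold higher in DHT and 3.57-fold in Vehicle, Tcirg1 2.55-fold in DHT and 2.30-fold in Vehicle, and Clcn7 2.38-fold in DHT and 2.11-fold in Vehicle. These 6 genes went up at each of the 4 steps in both libraries. Ostm1 was 1.11-fold higher in bin 5 than bin 1 in DHT and 1.16-fold in Vehicle, with its lowest value in bin 3, at 19.8 CPM in DHT and 19.0 CPM in Vehicle. Clcn7 and Ostm1, whose proteins work as a pair, thus had different slopes. Rab38 was 5.19-fold higher in bin 5 in DHT and 10.9-fold in Vehicle, against 24 UMIs in DHT and 15 in Vehicle in bin 1, and without those cells 6.29-fold in DHT and 30.8-fold in Vehicle.

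The libraries were then compared within each bin of the combined Nfatc1 and Jdp2 share. Of 48 gene and bin pairs, 37 were measured, 1 was called higher, against 2.72% of all gene and bin pairs, and 1 lower, against 1.03%. In bin 5, Acp5 had 914 CPM in DHT and 883 CPM in Vehicle (log2 0.05), Ctsk had 715 CPM in DHT and 729 CPM in Vehicle (log2 -0.03), and Tcirg1 had 309 CPM in DHT and 291 CPM in Vehicle (log2 0.09). Car2 had the widest gap there among measured genes, with 93.4 CPM in DHT and 77.9 CPM in Vehicle (log2 0.26). Its direction was not the same in all bins. In bin 3 it had 11.0 CPM in DHT from 369 UMIs and 17.5 CPM in Vehicle from 1484 UMIs (log2 -0.67). That gap was past 1.5-fold but under 20 CPM, so it was not called, and it kept its sign under all 18 other settings. The Car2 log2 ratio was -0.20 in bin 1, 0.65 in bin 2 and -0.12 in bin 4. Bins 1 and 2 were also under 20 CPM, and 1 DHT cell held 72 of the 140 DHT Car2 UMIs of bin 2. Without the 1% of cells with most Car2 UMIs, the log2 ratio was 0.35 in bin 1 and -0.06 in bin 2. With the bins given equal weights in both libraries, the log2 ratio of Acp5 over the 3 classes was 0.06, against 0.11 without weighting, that of Car2 was 0.07 against 0.17, and that of Ctsk was -0.09 against -0.03.

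**Figure D4:**
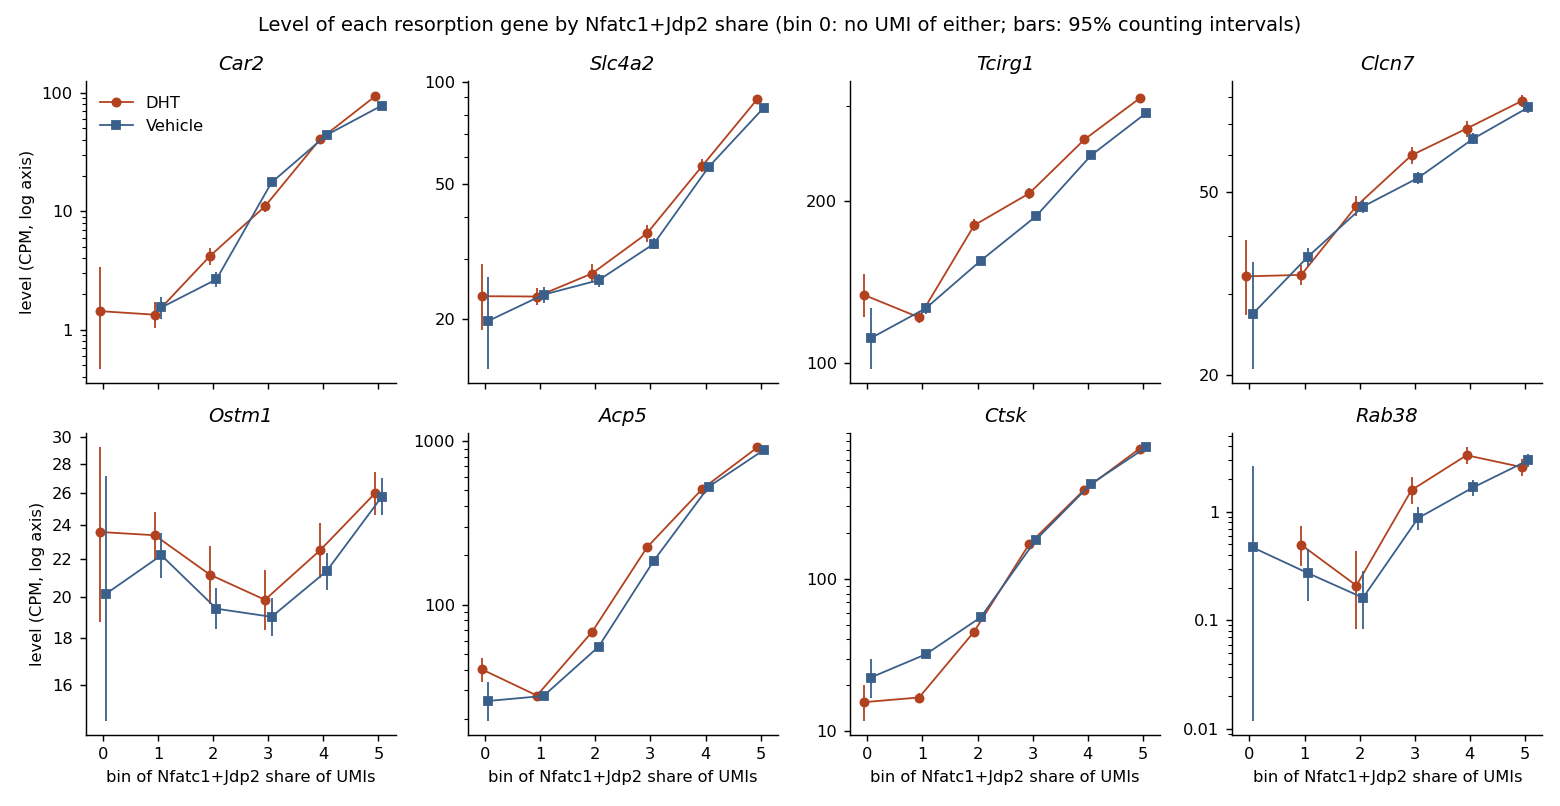
Level of each gene (CPM, log axis, a separate scale for each gene) by bin of the Nfatc1 and Jdp2 share, from bin 0 (no UMI of either) to bin 5 (highest share), with DHT as circles and Vehicle as squares. Bars are 95% Poisson counting intervals, and points without a UMI are not drawn. Acp5, Ctsk and Car2 are higher at each step from bin 1 to bin 5 in both libraries, which lie close together in bin 5 for Acp5 (914 CPM in DHT, 883 CPM in Vehicle), while Ostm1 stays between 19.0 and 26.0 CPM.

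Ctsk departed from the other genes at the low end. In bin 1 it had 16.6 CPM in DHT from 807 UMIs and 32.0 CPM in Vehicle from 1761 UMIs (log2 -0.94), the pair called lower. Over all genes in bin 1, 2.77% were called higher and 1.26% lower. In bin 2 it had 45.1 CPM in DHT and 56.0 CPM in Vehicle (log2 -0.31), and its log2 ratio was below 0 in all 6 bins as first computed. Under other settings it kept that sign in bins 1 and 2, and reached 0.22 in bin 0, 0.06 in bin 3, 0.07 in bin 4 and 0.01 in bin 5. Acp5 in bin 1 was 27.8 CPM in DHT and 27.7 CPM in Vehicle, and its log2 ratio ran from -0.18 to 1.51 over other settings. The cells of bin 1 were not alike in the libraries: 45.0% of DHT cells and 30.9% of Vehicle cells there were monocyte-like, the class with the lowest Ctsk. Osteoclast-like cells, the class with most Ctsk, were 3.27% of DHT and 9.20% of Vehicle cells of bin 1. There 9 DHT cells held 28.1% of the DHT Ctsk UMIs, and 11 Vehicle cells held 41.3% of the Vehicle ones. Without these cells Ctsk had 12.1 CPM in DHT and 19.0 CPM in Vehicle (log2 -0.65), both under 20 CPM. The part of the make-up of the bin, or of these few cells, in the Ctsk value was not tested. With free RNA estimated from neutrophil markers and subtracted, the Ctsk log2 ratio in bin 1 was -0.82, still past 1.5-fold, and the pair was no longer called because neither level then reached 20 CPM. The same subtraction gave Acp5 in bin 1 its log2 ratio of 1.51.

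Acp5 in bin 0, the pair called higher, had 40.2 CPM in DHT from 140 UMIs and 25.8 CPM in Vehicle from 55 UMIs, in 113 DHT and 56 Vehicle cells. Over all genes in bin 0, 8.02% were called higher and 4.68% lower. When bins were set from 10000 UMIs of each cell and levels read from its other UMIs, Acp5 in bin 0 was 27.1 CPM in DHT and 29.1 CPM in Vehicle, so the direction turned round. The regulators differed within bins as well. In bin 3, Nfatc1 had 216 CPM in DHT and 267 CPM in Vehicle (log2 -0.31) and Jdp2 had 729 CPM in DHT and 681 CPM in Vehicle (log2 0.10). In bin 1, which held the Ctsk call, both had smaller values in DHT, Nfatc1 with 32.2 CPM in DHT and 35.4 CPM in Vehicle and Jdp2 with 43.2 CPM in DHT and 50.8 CPM in Vehicle. Equal bins therefore do not hold equal levels of each regulator. UMIs of a list of type I interferon-stimulated genes also took a larger share in DHT in each bin, such as 0.353% in DHT and 0.191% in Vehicle in bin 5, and their part in these values was not tested.

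Most of the 69 other listed genes of bone resorption differed little in osteoclast-like cells as well. Of 52 measured, 2 were called higher and 1 lower, against 1.13% higher and 0.0925% lower over all genes tested. Their median log2 ratio was 0.09, against 0.04 over all genes, and 35 ratios lay above 1. The 3 called genes were Mmp9, Mmp14 and Kcnk13. Mmp9, a gelatinase of osteoclasts, had 521 CPM in DHT and 269 CPM in Vehicle (log2 0.96), and Mmp14, a membrane-bound collagenase, had 295 CPM in DHT and 182 CPM in Vehicle (log2 0.69). Kcnk13, a potassium channel, had 23.3 CPM in DHT and 37.6 CPM in Vehicle (log2 -0.69). In macrophage-like cells 4 of 53 measured genes of the list were called higher and 1 lower, against 3.28% higher and 1.15% lower over all genes, and all 5 were matrix-degrading enzymes. Mmp9 (332 CPM in DHT, 103 CPM in Vehicle), Mmp14, Lgmn and Acp2 were higher, and Mmp12, another metalloproteinase, was lower, with 86.9 CPM in DHT and 171 CPM in Vehicle (log2 -0.97).

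By role, read against those same shares in osteoclast-like cells, the proton pump and its assembly had 0 of 16 measured genes called, from Atp6v1b2, with 499 CPM in DHT and 407 CPM in Vehicle (log2 0.29), to Atp6v1f, with 252 CPM in DHT and 271 CPM in Vehicle (log2 -0.10). Both encode subunits of the pump's cytosolic part. Other ion transport had 1 of 6 called, Kcnk13, and its highest ratio was that of Slc9b2, a sodium-proton exchanger, with 199 CPM in DHT and 158 CPM in Vehicle (log2 0.33). Vesicle traffic had 0 of 11 called, from Plekhm1, an adaptor for lysosome fusion, with 36.3 CPM in DHT and 32.0 CPM in Vehicle (log2 0.18), to Rab32, with 26.2 CPM in DHT and 33.4 CPM in Vehicle (log2 -0.35). Rab32 is the close paralog of Rab38, and their ratios lay on opposite sides of 1. Adhesion and the sealing zone had 0 of 10 called, from Src, the kinase needed for a ruffled border in mice, with 74.1 CPM in DHT and 56.5 CPM in Vehicle (log2 0.39), to Wasl, with 30.4 CPM in DHT and 31.6 CPM in Vehicle (log2 -0.06). Among matrix-degrading enzymes the lowest was Ctsl, cathepsin L, with 1050.1 CPM in DHT and 1291 CPM in Vehicle (log2 -0.30).

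**Figure D5:**
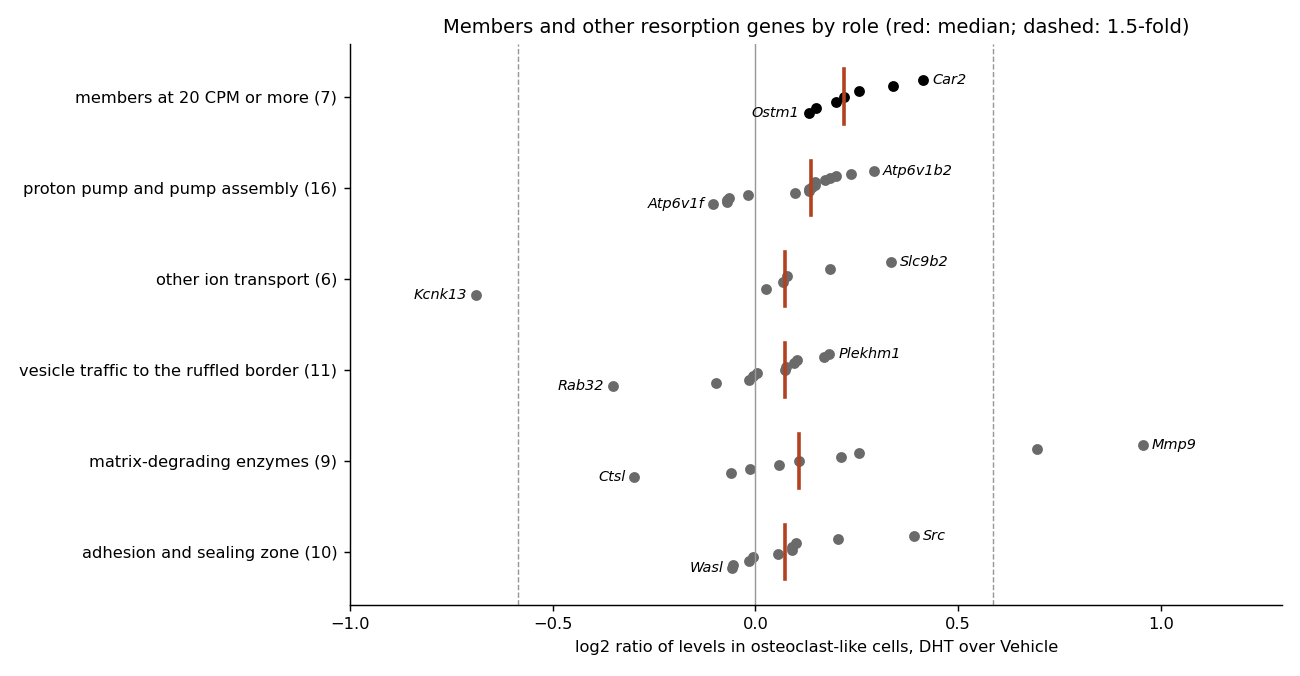
Log2 ratio of levels in osteoclast-like cells, DHT over Vehicle, by role, for the genes that reached 20 CPM in either library. Points are genes with the highest and lowest of each role named, red lines are medians, dashed lines mark 1.5-fold, and numbers in parentheses count genes. Only Mmp9, Mmp14 and Kcnk13 lie past 1.5-fold.

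The genes most like each member over the 7 classes in both libraries were found from log2(CPM + 10), a description over 14 points that share their libraries. Ctsk was most like Plxna4 (Pearson r 0.99), Acp5 most like Ppp2r3a (r 0.98), Tcirg1 most like Tmem65 (r 0.98) and Car2 most like Slc9b2 (r 0.90), out of 8516 genes. Clcn7 was most like Sdc1 (r 0.97), Slc4a2 most like Nptx1 (r 0.96), Ostm1 most like Epn1 (r 0.96) and Rab38 most like Kcnk12 (r 0.93). Between members, Clcn7 and Tcirg1 had the highest r (0.96) and Slc4a2 and Rab38 the lowest (-0.27). Clcn7 with Ostm1 had an r of 0.70.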

How the data were processed

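Deposited were raw UMI counts per gene and barcode, made by the authors with Cell Ranger 7.0.1, per the submitters' processing notes, which name the builds mm10 and GRCh38 without a role. The libraries were made with a 3′ droplet kit. They held 319430510 UMIs in 10798 DHT barcodes and 453802415 UMIs in 10630 Vehicle barcodes.

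Barcodes under 300 genes, under 800 UMIs or over 10% mitochondrial UMIs were dropped (2887 in DHT, 1884 in Vehicle), and Scrublet in scanpy 1.11.5 (expected rate 0.08) removed 203 DHT and 156 Vehicle doublets. Clustering (2000 variable genes without the 8 genes and the interferon lists, 30 components, 15 neighbours, Leiden resolution 0.6, leidenalg 0.10.2) gave 16 clusters. A cluster was named where at least 3 and at least 50% of a type's markers were more than 2-fold over the median of the other clusters, with CPM + 10, with at least 1 marker among its top 10 genes by fold, and the type with most markers there gave the name. Clusters with a median under 2000 UMIs stayed unnamed, which left out 1022 DHT and 439 Vehicle cells. The naming rule, the 8 genes and all lists were chosen with earlier results of these data known.

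Levels are summed counts as CPM with 95% Poisson intervals, and ratios have exact conditional binomial intervals (scipy 1.17.1). A gene was measured at 20 CPM in either library and called at 1.5-fold. With 1 library a group there was no test. Named were all 8 genes, and of other resorption genes those called and the highest and lowest of each role. For the likeness, the gene closest to each member is given. Free RNA was estimated from neutrophil markers. The scripts were tested on simulated counts. edgeR 4.0.16 was used for TMM factors only. Gene positions are from GENCODE M21.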

Additional observations from a re-analysis of the deposited data

How the results depend on the processing

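Of the counts of called genes and detected shares recomputed under other settings, 126 stayed within 1.5 times and 19 moved. In osteoclast-like cells the 7 measured genes gave 119 of 119 log2 ratios above 0 over 17 alternatives, from 0.26 to 0.35 for Acp5 and 0.31 to 0.44 for Car2. Rab38 ran from -0.04 to 0.62. The 0 genes called higher became 2 at a lower fold threshold and 1 with 2 CPM as the minimum. In macrophage-like cells the 1 gene called higher became 0 at resolution 1.0 and 0 with the 8 genes and interferon lists among the variable genes. The 0 called lower became 1 with at least 1000 genes and 2000 UMIs and 1 when the 10% of cells scored highest by Scrublet were left out. The 1 bin pair called higher became 3 with 2 CPM as the minimum, 0 with bins and levels read from separate UMIs, and 0 without the 1% of cells with most UMIs of each gene. The 1 bin pair called lower became 0 with free RNA subtracted, at a log2 ratio of -0.82 and levels under 20 CPM. It became 2 with the mean over cells, the lower fold, 2 CPM, osteoclast-like cells only or resolution 1.0. It became 3 with at least 20000 UMIs, separate UMIs, a 5% mitochondrial limit or at least 1000 genes. Without the 1% of cells with most UMIs of each gene, the pair called lower was a different one. Ctsk in bin 1 was then under 20 CPM, at 12.1 CPM in DHT and 19.0 CPM in Vehicle. Ctsk in bin 3, at 64.2 CPM in DHT and 104.8 CPM in Vehicle (log2 -0.71), was called instead. The log2 ratio of Acp5 in bin 0 reversed to -0.10 with separate UMIs. Values that were not called also turned: Acp5 over the 3 classes, 0.11, was -0.09 and Acp5 in bin 2, 0.30, was -0.32 with at least 1000 genes, Acp5 in bin 3, 0.27, was -0.19 at resolution 0.3, and Ctsk in bin 0, -0.54, was 0.22 with free RNA subtracted. The causes were not tested. Leaving out the top 1% of cells, or cells with 10 or more Igkc UMIs, was chosen after seeing the data. No paired analysis was possible because each group had 1 library. Depth limits Rab38 most, with 305 UMIs in DHT and 428 in Vehicle osteoclast-like cells.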

Other observations

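Osteoclast-like cells with at least 20000 UMIs were also split into 4 equal groups by the share of their UMIs from type I interferon-stimulated genes, a split added after the data were seen. From the group with the lowest share to the highest, Ctsk was 866, 361, 270.3 and 151 CPM in DHT (516 cells each) and 734, 325, 221 and 160.0 CPM in Vehicle (1130 or 1131 cells each). Acp5 was 891, 532, 375 and 349.8 CPM in DHT, and 737, 414, 309 and 252 CPM in Vehicle. Nfatc1 and Jdp2 together, the regulators, were 1867, 1637, 1531 and 1365 CPM in DHT, and 1629.7, 1402, 1263 and 1156 CPM in Vehicle.

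Within cluster 8, the cluster with most Acp5, the same split gave Ctsk at 2445, 1332, 1025 and 923 CPM in DHT (75 cells each) and 1939, 1174, 1133 and 823 CPM in Vehicle (152 or 153 cells each). Nfatc1 and Jdp2 together stayed between 2266 and 2382 CPM in DHT and between 2147 and 2213 CPM in Vehicle. Acp5 was 2242, 1618, 1365 and 1391 CPM in DHT and 1705, 1514, 1418 and 1246 CPM in Vehicle. Car2 was 115, 107, 110 and 98.8 CPM in DHT and 99.1, 121, 104 and 91.4 CPM in Vehicle. Rab38 was 32.6 CPM in the lowest and 2.68 CPM in the highest group in DHT, and 11.6 and 1.71 CPM in Vehicle. Few cells carried Rab38: over the whole cluster, 4 DHT cells held 54.9% of its DHT UMIs and 7 Vehicle cells 33.9% of its Vehicle UMIs. These are values of single libraries, shares of the same UMI totals, and no test was made.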
